A study of Mus musculus with 6 samples.

Results

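The nuclear genes of oxidative phosphorylation were examined in the uterus of mice with and without Foxo1 in cells that express the progesterone receptor. Members were taken by gene symbol. These were the Nduf genes of complex I, the Sdh genes of complex II, the Uqcr genes and Cyc1 of complex III, the Cox4 to Cox8 genes of complex IV and the Atp5 genes of complex V. The symbols matched 93 of 23420 genes in the deposited table, with 45 in complex I, 4 in complex II, 9 in complex III, 18 in complex IV and 17 in complex V. Symbols and proteins do not map perfectly, and 11 of the 93 were assembly factors or relatives that are not structural subunits, among them Ndufaf1 to Ndufaf7.

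Oxidative phosphorylation is the set of reactions in the inner mitochondrial membrane that turns the electrons of nutrients into ATP. Complexes I and II pass electrons to ubiquinone, complex III passes them on to cytochrome c, complex IV reduces oxygen to water, and complex V makes ATP from the proton gradient that complexes I, III and IV build. Most subunits are encoded in the nucleus, while the mitochondrial genome encodes a small core, and the uterus draws on this pathway for muscle contraction, secretion and the remodelling of the endometrium around implantation.

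RNA-seq was made from whole uteri of Foxo1f/f females, which carry floxed Foxo1 alleles without Cre and are called control here, and of PgrCre/+ Foxo1f/f females, called Foxo1d/d. All mice were 8 weeks old, on the C57BL/6J strain and at day 4.5 of pseudopregnancy, which was induced by mating with vasectomized males, so that no embryo was present. Each genotype had 3 libraries, and each library held the RNA of 2 females. The comparison asks how the loss of Foxo1 alters uterine transcripts at the time of receptivity. Cre is driven from the Pgr locus, which is also active in the pituitary, ovary and mammary gland, and the floxed allele loses part of the coding sequence, so the rest of the transcript can still be counted. Cells without Pgr, such as those of blood vessels, keep Foxo1.

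The values used were the authors' mean raw counts per gene, 1 for each genotype. The means summed to 26125014 counts in control and 27257963 in Foxo1d/d, and every mean was scaled by its own column total. Differences are given as log2 ratios of Foxo1d/d over control after adding a pseudocount of 1 to both means, and folds as the ratio of scaled means without it. With a single mean per genotype, no SD and no test across pools could be computed. Brackets give 95% Clopper-Pearson intervals from the summed reads of the 3 libraries, without the pseudocount. These cover counting error only, not differences between pools. "Higher" and "lower" therefore describe these means.

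Foxo1 checked the labels. Its mean count was 3941 in control and 1455.67 in Foxo1d/d, or 151 and 53.4 CPM, the unit used for counts scaled by column total, a log2 ratio of -1.50 (-1.55 to -1.45). Foxo1d/d thus held 35.4% of the control level, the direction the genotype calls for. Uterine markers were present in both genotypes, with Pgr at 209 and 240 CPM, Esr1 at 218 and 227 CPM, and the stromal gene Hoxa10 at 546 and 506 CPM.

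Oxidative phosphorylation transcripts were slightly more abundant in Foxo1d/d, and the difference was spread over nearly the whole pathway. The members took up 0.737% of all counts in control and 0.795% in Foxo1d/d, a scaled sum 7.81% higher (7.42% to 8.19%). Of the 90 members with an average mean count of at least 10, 87 had a ratio above 0, against 55.1% of the 15696 genes that passed the same minimum. The counting interval lay above 0 for 76 of the 90, or 84.4%, against 36.4% of all genes, and below 0 for 3, or 3.33%, against 27.1%. It included 0 for 11 members. The uterus was sampled in bulk, so a different number of cells of a type and a different amount of RNA per cell cannot be told apart.

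The size of the difference was small. The median log2 ratio was 0.13 over the members and 0.02 over all genes, and the quartiles of the members, 0.08 and 0.18, lay closer together than those of all genes, -0.11 and 0.17. Past a fold of 1.2, 7 of the 90 members were higher, beside 15.7% of all genes, and 0 were lower, beside 11.7% of all genes. At 7.78%, the share of members higher past that fold was thus below the background, but past a fold of 1.1 it was above it, at 45.6% beside 29.0% of all genes. Of the 7, Cox6a2 passed the minimum only through Foxo1d/d. At a minimum of 50 the count was 5, beside 13.3% of all genes. The members stood out by how many shared a direction, not by large ratios.

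**Figure D1:**
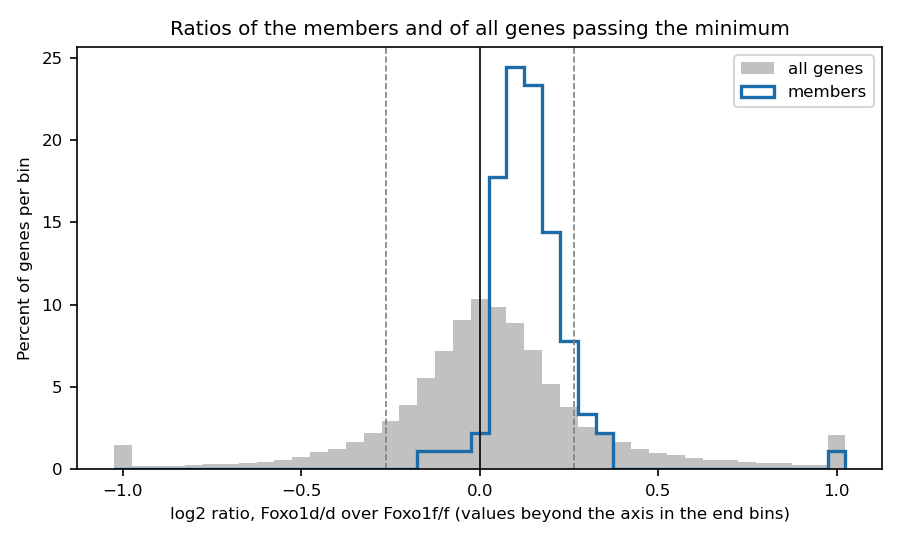
Percent of genes per bin of 0.05 (y axis) by log2 ratio, Foxo1d/d over control (x axis), for the 90 members that passed the minimum (blue line) and all 15696 genes that passed it (grey). Dashed lines mark a fold of 1.2 in each direction, and the members pile up just above 0 with a median of 0.13.

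Transcript length was read beside this pattern. Oxidative phosphorylation subunits are mostly small proteins, and 75.3% of the members had a transcript shorter than 1500 bases, against 15.2% of the genes with an assigned length. The 2162 other genes with transcripts that short had a median log2 ratio of 0.10, and 69.1% of them were above 0. The 67 short members that passed the minimum had a median of 0.14, and 98.5% were above 0. Against short genes the offset of the members' median was therefore smaller than against all genes, and the part of transcript length in the result was not tested further.

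The 5 complexes were all higher in Foxo1d/d by their summed counts. Complex I was 9.18% higher (8.48% to 9.89%), complex IV 8.92% (7.96% to 9.88%) and complex II 8.40% (6.98% to 9.83%). Complexes III and V were each 6.43% higher, with intervals of 5.33% to 7.56% and 5.79% to 7.08%. By counting error, complexes I, IV and II did not differ from each other. The intervals of complexes I and IV lay above those of complexes III and V, while that of complex II overlapped both. With structural subunits only, complex I still lay above complexes III and V at 9.02% (8.30% to 9.75%), but complex IV, then without Cox7a2l, was 7.81% higher (6.81% to 8.83%) and overlapped both. Ndufa4, with a log2 ratio of 0.04, was counted in complex I by its symbol in all these sums. It is now placed with complex IV, and sums with it moved were not made. Medians of single members ran from 0.10 in complex II to 0.15 in complex I.

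**Figure D2:**
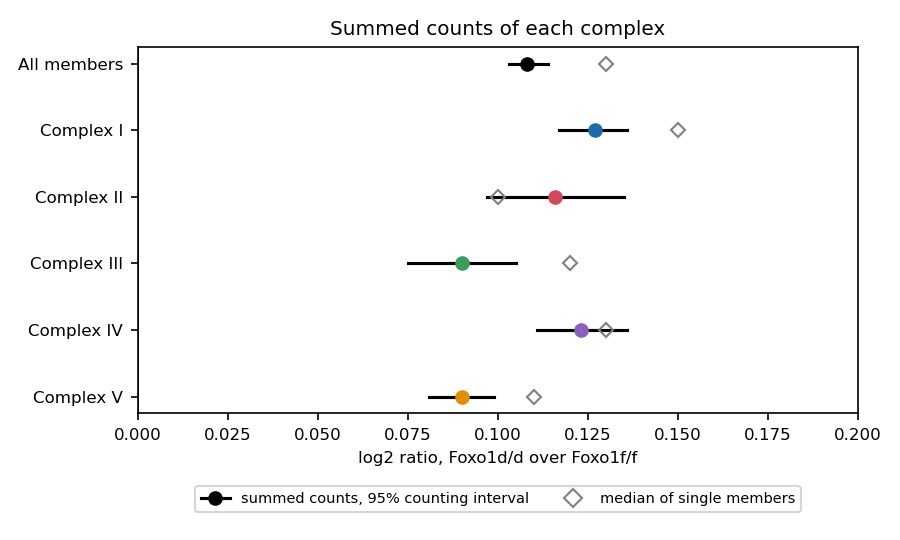
Log2 ratio, Foxo1d/d over control (x axis) of the summed counts of all members and of each complex, as filled points with 95% counting intervals, and the median over single members that passed the minimum, as open diamonds. All 5 complexes lie above 0, and complexes I and IV lie to the right of complexes III and V.

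Levels between genes were compared per length, as counts scaled by both column total and kilobases of transcript (RPKM). The median in control was highest in complex V, at 111 RPKM, followed by 94.8 in complex III, 92.8 in complex IV, 80.8 in complex II and 48.4 in complex I. The same order held in Foxo1d/d, with 116, 100, 103, 90.3 and 56.6 RPKM, except that complex IV then stood above complex III. With structural subunits only, complex III stayed above complex IV in both genotypes. Complex III then had 94.8 RPKM in control and 100 in Foxo1d/d, complex IV 85.7 and 94.9, and complex I 57.0 and 63.3. The ranking of single genes hardly differed either. Across the 90 members, log2 RPKM in both genotypes correlated with Pearson's r = 0.9962 and Spearman's rho = 0.9974, a description across genes of 2 pooled means, which share lengths and are not independent replicates.

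**Figure D3:**
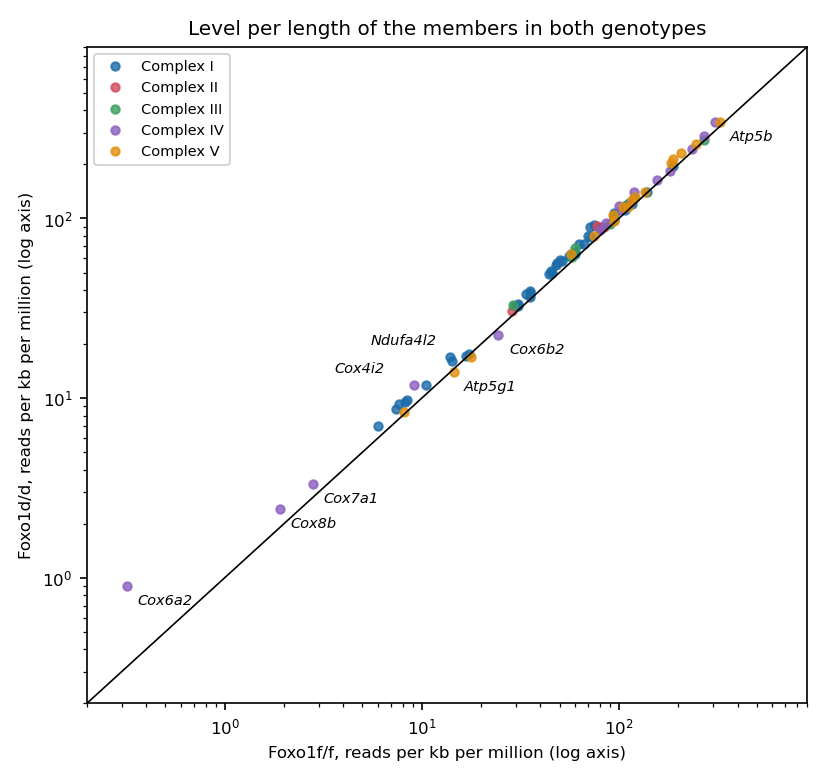
Level per length in Foxo1d/d (y axis) against control (x axis), both in RPKM on log axes, with 1 point for each of the 90 members that passed the minimum and the line of equal levels. Most points sit just above the line, while Cox6a2, at 0.319 and 0.899 RPKM, lies lowest and furthest above it.

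In complex I, which oxidizes NADH and pumps protons, all 44 members that passed the minimum had a ratio above 0, and 39 had an interval above 0, a call met by 36.4% of all genes. The 7 core subunits, which carry the flavin and iron-sulfur clusters, had a log2 ratio of 0.109 (0.091 to 0.127) in sum. The 29 accessory subunits, which surround and stabilize that core, had 0.138 (0.126 to 0.150), and the 7 assembly factors 0.144 (0.104 to 0.185). The core interval overlapped that of the assembly factors and barely touched that of the accessory subunits. All 3 groups thus lay in the same narrow band.

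The largest log2 ratio of complex I at an average mean count of at least 100 was that of Ndufa11, an accessory subunit of the membrane arm. Its mean counts were 1013.67 in control and 1338.67 in Foxo1d/d (log2 ratio 0.34, 0.27 to 0.41), a fold of 1.27. Ndufc2, another membrane-arm subunit, had mean counts of 1334.33 and 1719 (log2 ratio 0.30, 0.24 to 0.36). These were the only structural subunits of complex I past a fold of 1.2, and they stayed past it when ratios were centred on the median gene. Ndufaf4, a factor of early complex I assembly, had mean counts of 729 and 914 (log2 ratio 0.26, 0.18 to 0.35). Its fold sat at the threshold of 1.2, and it fell within it after centring on the median gene.

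The lowest ratio of complex I belonged to Ndufa6, an accessory subunit of the matrix arm, at 2139.67 and 2257.33 mean counts and a log2 ratio of 0.02 (-0.03 to 0.07). It turned below 0 when ratios were centred on the median gene or scaled by the upper quartile. By level per length, Ndufa4 led the symbols of this group at 189 RPKM in control and 195 in Foxo1d/d, followed by Ndufa6 at 139 and 140. These leading transcripts were thus among the least different ones of the complex. Ndufs5, an accessory subunit, was listed at 0 in both genotypes and has a near-identical locus elsewhere in the genome.

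Ndufa4, named as a complex I subunit but now placed with complex IV, had mean counts of 3017 and 3245.67 (log2 ratio 0.04, 0.00 to 0.09). Its relative Ndufa4l2, which is induced by hypoxia, had 338.33 and 431, a log2 ratio of 0.29 (0.17 to 0.41). Of the reads of this pair, Ndufa4l2 took 10.1% in control (9.50% to 10.7%) and 11.7% in Foxo1d/d (11.1% to 12.3%), so its share was higher by more than counting error. The fold of Ndufa4l2 fell within 1.2 after centring on the median gene.

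**Figure D4:**
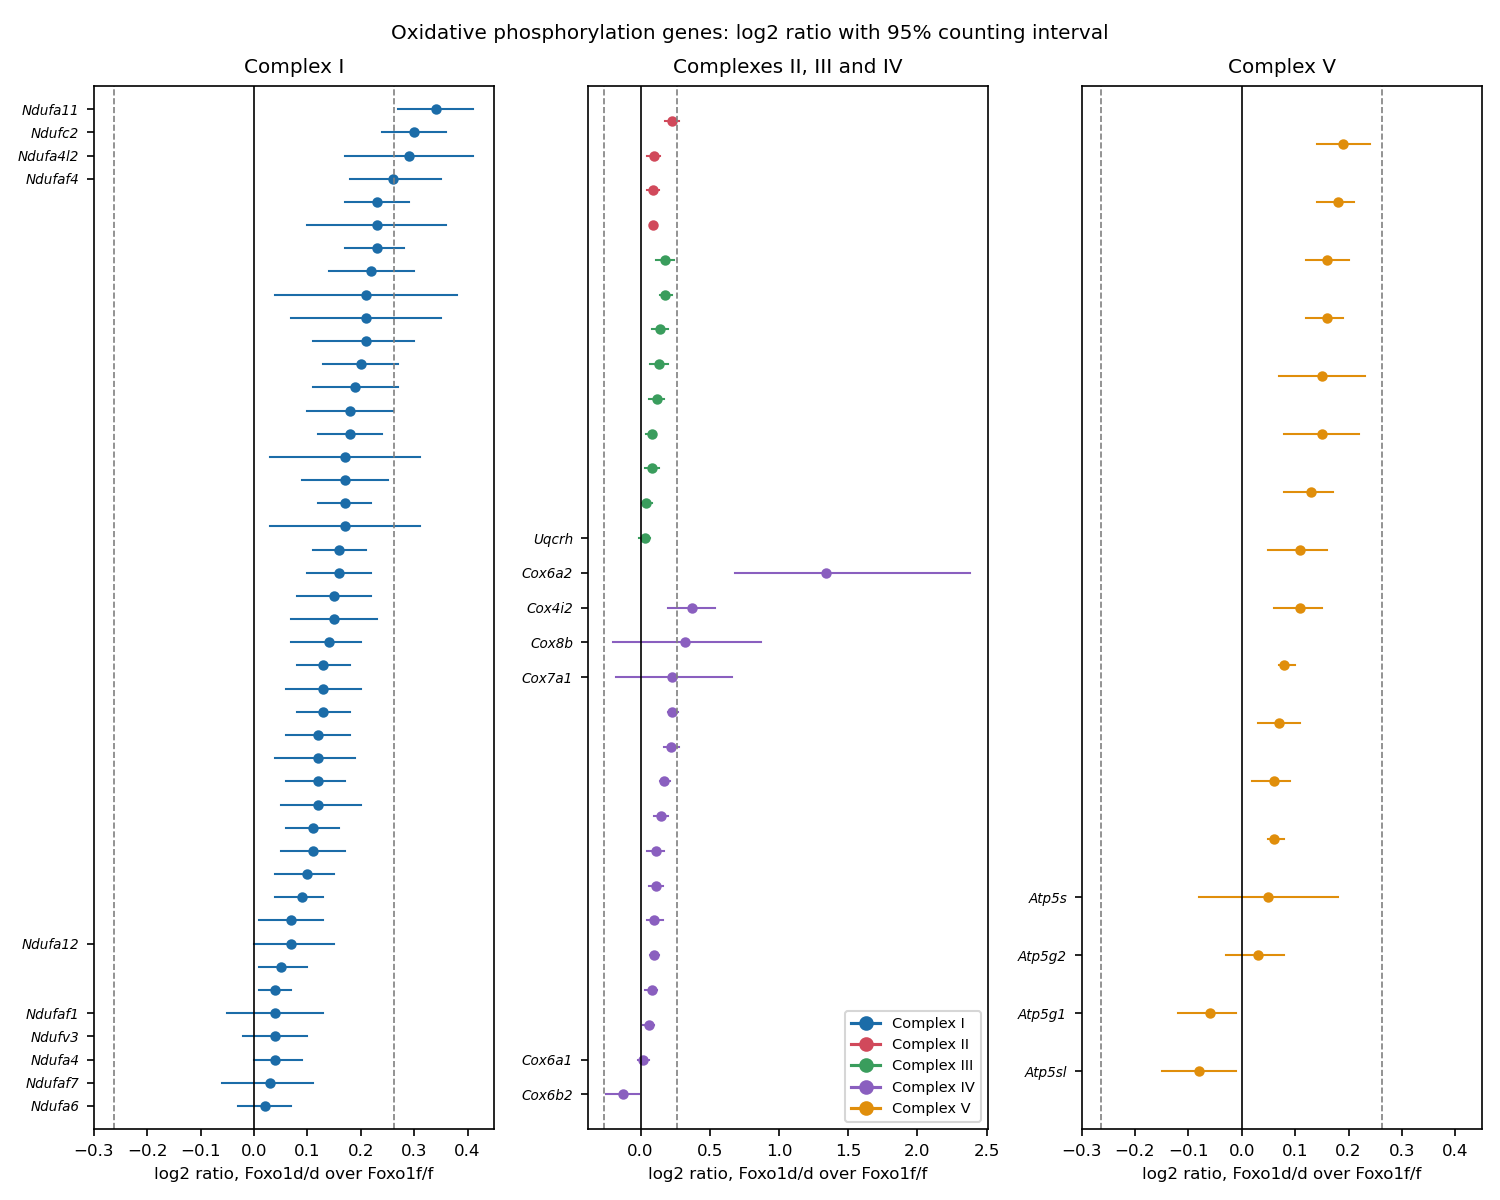
Log2 ratio, Foxo1d/d over control (x axis) of the 90 members that passed the minimum, by complex, with 95% counting intervals as bars, dashed lines at a fold of 1.2 and a wider x axis in the middle panel, naming those past that fold or with an interval reaching 0 or lower. All complex I genes lie above 0, Cox6a2 stands apart at 1.34, and Cox6b2, Atp5g1 and Atp5sl lie below 0.

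Complex II, or succinate dehydrogenase, is shared with the tricarboxylic acid cycle and has all of its subunits encoded in the nucleus. All 4 were higher, with intervals above 0. Sdhb, the iron-sulfur subunit, had mean counts of 2317.33 and 2837.33 (log2 ratio 0.23, 0.18 to 0.28), within the fold of 1.2. Sdha, the flavoprotein, had 6351.67 and 7071.33, a log2 ratio of 0.09 (0.07 to 0.12). Sdhd, a membrane anchor, had 3028.67 and 3356.33, a log2 ratio of 0.09 (0.05 to 0.13). The interval of Sdhb lay above those of its partners Sdha and Sdhd. Per length, Sdhd stood at 94.2 RPKM in control, Sdha at 83.8 and Sdhb at 77.7, while Sdhc, the other membrane anchor, stood lowest at 28.6. Sdhc was named after its values were seen.

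In complex III, which moves electrons from ubiquinol to cytochrome c, all 9 members had a ratio above 0 and none was past a fold of 1.2. Cyc1, the cytochrome c1 subunit, had the highest log2 ratio, 0.18 (0.14 to 0.23), from mean counts of 2380.67 and 2821.67. Uqcrh, the hinge protein that sits beside it, had the lowest, 0.03 (-0.01 to 0.07), from 3856 and 4103.67. Subunits that touch in the complex thus lay at opposite ends of its range. Uqcrh was also the most abundant per length, at 270 RPKM in control and 275 in Foxo1d/d, ahead of Uqcrb at 120 and 130 and Uqcr11 at 109 and 119. Uqcrb, which contributes to ubiquinone binding, has 3 near-identical loci in the genome, so its counts are uncertain.

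Complex IV, cytochrome c oxidase, combines common subunits with isoforms that replace them in certain tissues. The 10 common subunits were 7.84% higher in sum (6.83% to 8.87%), and each had a ratio above 0. The highest levels per length in control were those of Cox6c at 306 RPKM, Cox4i1 at 269 and Cox8a at 234, and in Foxo1d/d they were 345, 288 and 244. Cox6c, a small membrane subunit, had mean counts of 4016.33 and 4727.67 (log2 ratio 0.17, 0.14 to 0.21). Cox4i1, the main form of subunit IV, had 5386 and 6012 and a log2 ratio of 0.10 (0.07 to 0.13). Cox7a2l, which joins complexes III and IV into supercomplexes, had 3507.33 and 4305.33 and a log2 ratio of 0.23 (0.20 to 0.27). Its fold of 1.18 lay just within the threshold. Cox7a2l was named after its values were seen.

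The tissue isoforms of complex IV held 3 of the 7 members past a fold of 1.2, at low levels. Cox4i2, an isoform of subunit IV found in lung and in vessel walls, had mean counts of 173 in control and 233.33 in Foxo1d/d (log2 ratio 0.37, 0.20 to 0.54). It made up 3.11% of the Cox4 reads in control (2.85% to 3.39%) and 3.74% in Foxo1d/d (3.47% to 4.02%). The share of Cox4i2 was thus higher by more than counting error, although Cox4i1 remained the main form.

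Cox6a2 is the form of subunit VIa found in heart and skeletal muscle. Its log2 ratio, 1.34 (0.68 to 2.38), was the highest of the members that passed the minimum, on mean counts of 5.67 and 16.67. Cox6a2 passed only through Foxo1d/d, since its control mean lay below the minimum of 10. Its ratio rests on 17 reads in control and 50 in Foxo1d/d over all libraries. The share of Cox6a2 among Cox6a reads was 0.209% (0.122% to 0.335%) and 0.579% (0.430% to 0.763%). Its ubiquitous partner Cox6a1 had 2703 and 2860.67, a log2 ratio of 0.02 (-0.02 to 0.06) that turned below 0 after centring on the median gene or upper-quartile scaling. Cox8b, a muscle and brown fat form of subunit VIII, had mean counts of 18 and 23.67 (log2 ratio 0.32, -0.20 to 0.87). Its difference was not detectable at this depth, although its ratio was past the fold.

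Cox8a, the ubiquitous form of subunit VIII, had mean counts of 3367 and 3656.67 (log2 ratio 0.06, 0.02 to 0.10). Cox7a1, the muscle form of subunit VIIa, had 29 and 35.67, a log2 ratio of 0.23 (-0.18 to 0.66), and its partner Cox7a2 had 1774.33 and 1988, a log2 ratio of 0.10 (0.05 to 0.16). Cox7a1 took 1.61% of their reads in control (1.29% to 1.98%) and 1.76% in Foxo1d/d (1.45% to 2.13%), so the shares did not differ beyond counting error. Cox7b had 2096 and 2361.33, while Cox7b2 had 0.33 and 0, and Cox8c was listed at 0 in both genotypes.

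Cox6b2, known as a testis form of subunit VIb, ran the other way. Its mean counts were 374.33 in control and 357 in Foxo1d/d (log2 ratio -0.13, -0.25 to -0.01), the lowest of the 90 members. Cox6b1, the common form, had 2511 and 2767.67, a log2 ratio of 0.08 (0.03 to 0.12). Cox6b2 took 13.0% of the Cox6b reads in control (12.3% to 13.7%) and 11.4% in Foxo1d/d (10.8% to 12.1%). For a form named after the testis this was a sizeable share in the uterus of both genotypes.

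Complex V, the ATP synthase, makes ATP in its F1 head as protons drive its rotor. Atp5b, the catalytic beta subunit, had mean counts of 16219 in control and 17930.33 in Foxo1d/d, or 324 and 343 RPKM, and a log2 ratio of 0.08 (0.07 to 0.10). Atp5a1, its alpha partner in the F1 head, had 15952.33 and 17394.33, or 247 and 258 RPKM, a log2 ratio of 0.06 (0.05 to 0.08). The alpha and beta subunits, which alternate in the same ring, had overlapping intervals. Atp5e, the epsilon subunit of the central stalk, had the highest ratio of the complex, 0.19 (0.14 to 0.24), on 2065 and 2452 mean counts.

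By part of the enzyme, the F1 head and central stalk were 5.48% higher in sum (4.69% to 6.29%). The c ring, which turns as protons pass, was 5.47% higher (3.58% to 7.39%). The peripheral stalk, which holds the head in place, was 10.7% higher (9.15% to 12.3%), and its interval lay above those of the head and the ring. The counts of all 4 peripheral stalk genes are uncertain, however. Atp5f1, Atp5j and Atp5o overlapped another gene over 21.0%, 22.5% and 48.6% of their exon bases, and Atp5h has 3 near-identical loci. The 3 small membrane subunits were 9.17% higher (6.40% to 12.0%). No member of complex V was past a fold of 1.2 in either direction.

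The c ring is encoded by Atp5g1, Atp5g2 and Atp5g3, whose precursors differ in the import peptide but give the same mature protein. Atp5g1 had mean counts of 1784.67 and 1785.33, which after scaling gave a log2 ratio of -0.06 (-0.12 to -0.01). Atp5g2 had 1802.67 and 1916.67, a ratio of 0.03 (-0.03 to 0.08), and Atp5g3 had 3917.33 and 4556.33, a ratio of 0.16 (0.12 to 0.19). The genes for an identical subunit thus differed in their ratios, and the intervals of Atp5g3 and its partners did not overlap. Atp5g3 took 52.2% of their reads in control (51.5% to 52.9%) and 55.2% in Foxo1d/d (54.6% to 55.8%), while Atp5g1 took 23.8% (23.2% to 24.3%) and 21.6% (21.1% to 22.1%). Atp5g2 has 2 near-identical loci elsewhere, which could take some of its reads. Per length, Atp5g3 stood at 207 RPKM in control and 231 in Foxo1d/d. The level of Atp5g1 per length, 14.5 RPKM, rests on an assigned transcript of 4715 bases, the longest among the members, and a shorter form would raise it.

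The relatives Atp5s and Atp5sl are named after the ATP synthase but are not among its structural subunits, and Atp5sl encodes a factor for the membrane arm of complex I. Atp5sl had mean counts of 1111.33 and 1100.67 (log2 ratio -0.08, -0.15 to -0.01), the lowest in complex V. Atp5s had 313.33 and 338.67, a ratio of 0.05 (-0.08 to 0.18). Of the 3 members with a ratio below 0, Atp5sl and Cox6b2 were therefore not common subunits of an enzyme, and Atp5g1 was 1 of 3 genes for its protein.

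The members did not share a place in the genome. They lay on 19 chromosomes, with 10 on chromosome 7 and 3 on the X chromosome, Cox7b, Ndufa1 and Ndufb11. The X-linked genes had a median log2 ratio of 0.11 and the autosomal ones 0.13. Near-identical loci were found for 11 members, of which Atp5l, a small membrane subunit of complex V, had 9, and without these 11 the median over the rest was 0.13. For 11 members over 20% of the exon bases overlapped another gene, up to 50.3% in Ndufb2 and 48.6% in Atp5o. Their counts are uncertain, because the use of strand in counting is not given in the sources used here. Ndufa11 overlapped another gene over 12.8% of its exons and Cox6a2 over 10.3%.

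Across members, the ratio ran against the level. Over the 90 members that passed the minimum, log2 RPKM in control and the log2 ratio had Pearson's r = -0.53 and Spearman's rho = -0.34. Over the 87 members with an average mean count of at least 100, which leaves out the rare isoforms Cox6a2, Cox7a1 and Cox8b, the values were r = -0.21 and rho = -0.28. The same means of control enter both measures, genes are not independent replicates, and the values are a description. Transcript length and the ratio had r = -0.16 and rho = -0.13 over these 87 genes. Abundant members thus tended toward smaller ratios, more weakly once those isoforms were left out.

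Promoters are shown because most members shared a direction. RefSeq sequences on GRCm38.p6, from 250 bases before to 50 after each annotated start, were matched by gene identifier for 76 of the 93 members. Those without a match included Atp5a1, Cox4i1, Cox4i2, Cox6a2, Cox6c, Cox8c, Cyc1, Ndufa2, Ndufa4l2, Ndufaf6, Ndufb9, Ndufs1, Sdhc, Uqcrb, Uqcrc2 and Uqcrq. Printed are the 250 bases before the start, with matches that lie wholly within them in capitals, for Ndufa11, Ndufaf4, Ndufc2 and Cox8b, which were past the fold, and for Atp5g2 and Cox6a1, which had ratios near 0. Other members near 0 are not shown.
Ndufa11, chr17:56717512-56717761, forward strand: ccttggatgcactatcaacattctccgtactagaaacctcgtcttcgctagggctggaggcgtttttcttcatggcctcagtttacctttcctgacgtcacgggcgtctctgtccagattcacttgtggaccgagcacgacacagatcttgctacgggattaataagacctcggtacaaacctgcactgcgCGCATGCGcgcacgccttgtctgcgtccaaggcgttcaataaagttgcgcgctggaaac
Ndufaf4, chr4:24897833-24898082, forward strand: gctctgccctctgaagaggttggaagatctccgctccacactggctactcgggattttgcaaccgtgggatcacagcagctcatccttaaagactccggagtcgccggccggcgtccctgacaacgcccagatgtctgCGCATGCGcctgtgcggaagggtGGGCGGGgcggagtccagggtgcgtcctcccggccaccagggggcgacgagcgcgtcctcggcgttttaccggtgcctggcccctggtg
Atp5g2, chr15:102671048-102671297, reverse strand: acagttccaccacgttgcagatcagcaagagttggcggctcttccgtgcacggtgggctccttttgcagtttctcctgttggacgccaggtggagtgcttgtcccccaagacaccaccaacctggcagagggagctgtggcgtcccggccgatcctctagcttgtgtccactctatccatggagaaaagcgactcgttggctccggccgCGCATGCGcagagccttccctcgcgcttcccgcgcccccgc
Cox6a1, chr5:115348959-115349208, reverse strand: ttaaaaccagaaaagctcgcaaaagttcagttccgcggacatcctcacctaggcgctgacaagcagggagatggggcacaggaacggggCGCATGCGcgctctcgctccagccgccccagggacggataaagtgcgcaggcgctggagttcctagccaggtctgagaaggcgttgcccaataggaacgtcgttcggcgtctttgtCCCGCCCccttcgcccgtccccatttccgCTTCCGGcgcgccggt
Ndufc2, chr7:97399753-97400002, forward strand: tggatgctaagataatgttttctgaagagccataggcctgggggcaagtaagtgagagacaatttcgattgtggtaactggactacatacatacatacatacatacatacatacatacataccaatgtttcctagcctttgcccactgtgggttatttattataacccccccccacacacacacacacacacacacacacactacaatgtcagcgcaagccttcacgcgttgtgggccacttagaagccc
Cox8b, chr7:140900447-140900696, reverse strand: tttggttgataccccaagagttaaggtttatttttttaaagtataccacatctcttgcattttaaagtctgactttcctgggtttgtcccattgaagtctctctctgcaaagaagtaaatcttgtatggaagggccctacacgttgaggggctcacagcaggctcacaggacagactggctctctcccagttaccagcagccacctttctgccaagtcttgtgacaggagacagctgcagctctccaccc

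The motifs searched on both strands were the NRF1 core CGCATGCG, the ETS core CCGGAAG bound by GABPA, the YY1 motif AAGATGGC, the nuclear receptor motif AAGGTCA bound by ESRRA, the forkhead motif GTAAACA, the TATA box TATAAAA and the GC box GGGCGGG bound by SP and KLF factors. The ETS and YY1 motifs can overlap by the letters AAG. A gene was counted when any of its windows held a match, and a match is a description of letters, not of binding.

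The NRF1 core stood in 11 of the 76 members, or 14.5%, against 2.07% of all 27025 genes with a window and 3.79% of the 12045 that also passed the count minimum. NRF1 is known as a regulator of respiratory genes. The core occurred both in Ndufa11 and Ndufaf4, with ratios of 0.34 and 0.26, and in Atp5g2 and Cox6a1, with ratios of 0.03 and 0.02. Other members near 0 lacked it, among them Ndufa6 at 0.02 and Uqcrh at 0.03. The promoters shown for Atp5g2 and Cox6a1 therefore do not stand for all members near 0. Members with and without the core had the same median log2 ratio, 0.13.

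The YY1 motif also stood in 14.5% of members, against 4.62% of the genes that passed the minimum. In 9 of its 11 members it began 22 to 38 bases past the annotated start and on the strand of the gene, among them Ndufa3, Ndufc1, Ndufs7 and Atp5j2. The ETS core was found in 22.4% of members and 17.5% of the genes that passed the minimum, and the ESRRA motif in 10.5% and 4.05%. The GC box was found in 35.5% of members and 49.1% of those genes. At least 1 of the NRF1, ETS and YY1 motifs stood in 33 of the 76 members, or 43.4%, against 23.9%.

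The forkhead motif, the sequence that FOXO proteins and other forkhead factors bind, stood in 3 members, Cox7a2, Atp5sl and Ndufaf1. This was 3.95% of the members, beside 4.05% of all genes and 3.11% of those that passed the minimum. The median log2 ratio of these 3 was 0.04. The TATA box stood in 3 members as well, 1 of which was Cox8b, just past its start. For every motif apart from the forkhead one, members with and without it had medians between 0.12 and 0.15.

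Other mitochondrial pathways were set beside the members. Of all genes that passed the minimum, 55.1% were above 0, 15.7% were higher past the fold and 11.7% were lower past it. The counts of each list below are to be read beside these shares. Genes for electron carriers and coenzyme Q synthesis had a median log2 ratio of 0.17, with 5 of 19 past the fold and higher and 1 lower. Etfa, a subunit of the electron transfer flavoprotein, stood at 82.5 and 90.2 CPM and had the highest average of both mean counts, the measure by which a gene is called the most abundant of its list below. Cycs, cytochrome c itself, had mean counts of 763.67 and 1028.33 (log2 ratio 0.37, 0.29 to 0.45). The carrier between complexes III and IV thus had a larger ratio than any structural subunit of either complex apart from tissue isoforms. Coq10b had a ratio of 0.31 and Dhodh, which feeds electrons from pyrimidine synthesis into ubiquinone, 0.28. Adck3, a kinase-like protein of coenzyme Q synthesis, went the other way at -0.44 (-0.53 to -0.35).

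Assembly factors of complexes II to V had a median of 0.11, and 25 of the 26 that passed the minimum were above 0, with 5 past the fold and 0 lower. The largest were Sdhaf1, which helps to mature Sdhb, at 0.47 (0.33 to 0.61), Cox18 at 0.43, Taco1 at 0.35 and Cox10, which makes the heme of complex IV, at 0.34. Coa5 was the most abundant, at 98.0 and 104 CPM. Complex I assembly factors outside the Nduf symbols had a median of 0.06 over 7 genes, with 2 past the fold, Ecsit at 0.30 and Foxred1 at 0.27, and Acad9, the most abundant, at 0.24. The medians of both lists thus lay below the 0.13 of the members, although their largest ratios exceeded those of most subunits. By summed counts the order was the other way. The factors of complexes II to V stood at 0.13 (0.11 to 0.14) and those of complex I at 0.18 (0.15 to 0.21). All members together stood at 0.108 (0.103 to 0.114).

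Tricarboxylic acid cycle genes had a median of 0.11, with 18 of 19 above 0 and 2 past the fold. Cs, citrate synthase and the most abundant of them, stood at 214 and 249 CPM, a log2 ratio of 0.22. Pcx, pyruvate carboxylase, which refills the cycle, stood apart at 0.88 (0.84 to 0.91), on mean counts of 3139.33 and 6011.33. Idh3a had a ratio of 0.27 and Pdhx 0.24. Apart from Pcx, the cycle thus lay in the same range as the respiratory chain.

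Mitochondrial ribosomal proteins, which translate the subunits of the mitochondrial genome, had a median of 0.16, with 70 of 76 above 0. Past the fold, 8 were higher, a smaller share than the 15.7% of all genes, and 1 was lower, Mrps6 at -0.37. Mrpl41 and Mrps26 were at 0.39, Mrps28 was at 0.31, and Mrpl10, the most abundant on average over both genotypes, had 58.0 and 63.1 CPM. Cytosolic ribosomal proteins had a median of -0.01, with 30 of 75 above 0. Among these, Rpl4 was the most abundant at 1382 and 1367 CPM, and Rps18 at -0.44, Rps2 at -0.30 and Rpl29 at 0.23 had the largest ratios at an average mean count of at least 100. The ribosomal lists of the mitochondrion and the cytosol thus had different medians.

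Carriers of the inner and outer mitochondrial membranes had a median of 0.16, with 12 of 14 above 0 and 3 past the fold. Slc25a10, the dicarboxylate carrier, had a ratio of 0.70 (0.63 to 0.76), Slc25a5, which exchanges ATP for ADP, 0.31 and Slc25a11 0.28, and Slc25a13 had 0.23 within the fold. Slc25a3, the phosphate carrier and the most abundant, had 318 and 325 CPM. Glycolysis genes had a median of 0.15, but 8 of 15 above 0 and 4 past the fold, among them Hk2, a hexokinase that sits on mitochondria, at 1.02 (0.93 to 1.12), Aldoc at 0.86, Ldha at 0.40 and Pgk1 at 0.27. Pkm, the most abundant, had 476 and 530 CPM. Pfkp, a phosphofructokinase named after its values were seen, was lower at -0.15 (-0.21 to -0.09). Glycolysis genes therefore lay on both sides of 0, unlike most members.

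Genes that regulate mitochondrial biogenesis had a median of -0.01, with 8 of 17 above 0, 1 past the fold and 1 lower. Esrra, a nuclear receptor of respiratory genes, was at 0.36 (0.28 to 0.44), on mean counts of 745.33 and 998.33. Its coactivator Ppargc1a was at -0.19 (-0.36 to -0.03) on 219.33 and 200, and the related Pprc1 was at 0.18 and Polg, the mitochondrial DNA polymerase, at -0.12. Gabpb2, the most abundant, had 172 and 173 CPM, and Nrf1 had 40.0 and 40.4. The regulators thus did not share the direction of the members as a list. Subunits encoded in the mitochondrial genome had 0 entries in the table used here, so nuclear and mitochondrial subunits were not compared.

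**Figure D5:**
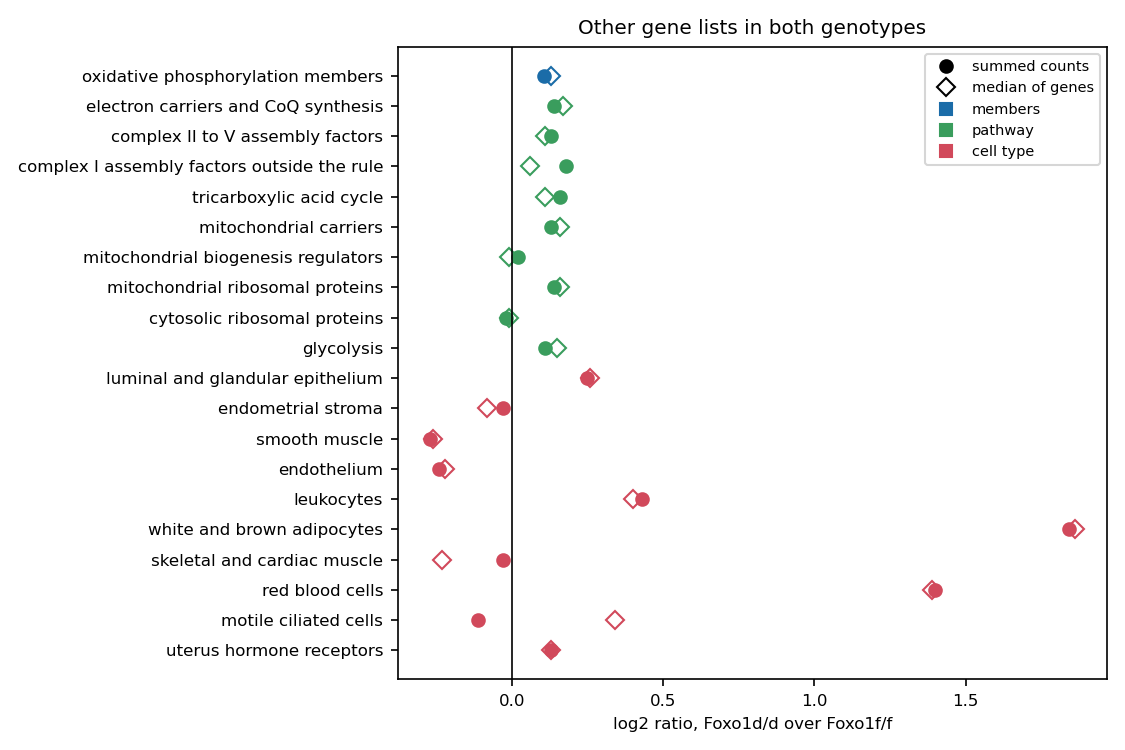
Log2 ratio, Foxo1d/d over control (x axis) for the members and the other gene lists, as the ratio of summed counts (filled circles) and the median over genes that passed the minimum (open diamonds), coloured by kind of list. The mitochondrial lists sit near the members, biogenesis regulators and cytosolic ribosomal proteins sit near 0, and the adipocyte markers lie furthest to the right.

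Markers of uterine cell types differed between the genotypes alongside the members. Their counts, too, are to be read beside the shares of all genes, 55.1% above 0, 15.7% higher past the fold and 11.7% lower past it. Epithelial markers summed to 861 CPM in control and 1025 in Foxo1d/d, with 10 of 12 above 0, 6 higher past the fold and 1 lower. Cdh1, the most abundant of them, had 170 and 183 CPM, Krt19 had a log2 ratio of 1.22, Elf3 of 0.86 and Krt8 of 0.48. Leukocyte markers summed to 556 and 748 CPM, with 6 of 7 past the fold. Cd74, the most abundant, stood at 307 and 439 CPM and a ratio of 0.52, and the rarer Cd3e, named after its values were seen, had the largest ratio at 1.09. Ptprc was at 0.40, Ncr1 at 0.38 and Itgam at 0.33.

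Muscle and vessel markers ran lower. Smooth muscle markers summed to 8437 CPM in control and 7015 in Foxo1d/d, with 0 of 10 above 0 and 5 past the fold. Myh11, the most abundant, was at -0.43, Actg2 and Lmod1 at -0.41 and Des at -0.34. Endothelial markers summed to 1700 and 1436 CPM, with 0 of 8 above 0 and 1 past the fold, Vwf at -0.41. Emcn was at -0.24, and Cdh5 and the most abundant, Pecam1, were at -0.22. Stromal markers summed to 12089 and 11844 CPM, with 2 of 10 above 0, Lum at 0.37, Pdgfra at -0.26, Vim at -0.24, Nr2f2 at -0.12 and Col3a1, the most abundant, at -0.05. These marker levels thus differed between the genotypes, and their part in the result for the members was not tested.

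Markers of tissues that use the muscle and fat isoforms were read beside Cox6a2, Cox7a1 and Cox8b. White and brown adipocyte markers summed to 17.6 CPM in control and 62.8 in Foxo1d/d, and all 7 of the 10 genes that passed the minimum were past the fold. Cfd, the most abundant on average over both genotypes, had mean counts of 155.67 and 594 and a ratio of 1.86, with Adipoq at 1.82 and Fabp4 at 1.71. The brown fat markers Ucp1, Cidea and Elovl3 stayed at mean counts of 1, 8.67 and 6 in control and 0.67, 8 and 5.67 in Foxo1d/d. Skeletal and cardiac muscle markers summed to 125 and 122 CPM, with 2 of 6 above 0 and 3 lower past the fold. Their most abundant gene Acta1 was at -0.02, Tnni2 at 0.24 and Tnnt3 at 0.09. The 3 past the fold were Actc1 at -0.70 (-0.97 to -0.46), Ckm at -0.67 (-1.01 to -0.36) and Actn3 at -0.44. The defining myosins Myh1, Myh2, Myh4 and Myh7 were at mean counts of 0.67 or less in both genotypes, while the cardiac myosin Myh6 had 6.67 and 6.33. The part of these markers in the ratios of the isoforms was not tested.

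Blood and cilia were also read. Of 6 red blood cell markers in the table, 4 globin genes were listed at 0 and Alas2, the most abundant, had mean counts of 146.67 and 403, a ratio of 1.39. The list summed to 5.65 and 14.9 CPM. Ciliated cell markers summed to 18.4 and 17.1 CPM, with 3 of 4 above 0, 2 past the fold and 1 lower. Ccdc39, the most abundant, was the lower one at -0.29. Above 0 were Foxj1 at 0.88 (0.36 to 1.54), Tekt1 at 0.49 (0.07 to 0.95) and Rsph1 at 0.19 (-0.07 to 0.45). The median of the list was 0.34. The cause of the globin zeros was not tested, so they are not read as a level of blood. The part of these markers in the result was not tested.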

How the data were processed

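RNA-seq was made from 6 libraries, 3 per genotype, each of RNA pooled from 2 females. The labels' processing notes name mm9, STAR, Picard, HTSeq and edgeR without versions, while the study's methods name mm10; the build was not settled. By those methods, the authors trimmed paired reads, aligned them with STAR, removed duplicates with Picard, and counted reads per RefSeq gene with HTSeq. The deposited table holds raw counts that the authors averaged over the libraries of a genotype, the deposited mean counts by the authors. It also holds the authors' fold change, average log2 CPM, p-value and FDR from edgeR, which were not used. Single-library counts were not analysed, and 0 columns of other single-sample values were left out. The summed reads were 78375043 in Foxo1f/f and 81773890 in Foxo1d/d.

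Means were scaled by column totals, log2 ratios used a pseudocount of 1, and genes with an average of both means of at least 10 were described. A gene was counted as higher or lower past a fold of 1.2. No test was made. Intervals are exact binomial at 95%. Lengths are those of the longest transcript of GENCODE M21 (GRCm38) with a curated RefSeq counterpart, matched by Entrez identifier for all 93 members and 93.7% of genes that passed the minimum. Near-identical loci had at least 95% identity over 50% of the transcript in BLAST 2.17.0. Python 3.11.15, numpy 2.4.6, pandas 2.3.3, scipy 1.17.1 and matplotlib 3.10.9 were used, and the ratio and interval were tested on simulated data.

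Genes named singly were taken from Foxo1, in each complex the 3 with the highest level per length in Foxo1f/f and the highest and lowest log2 ratio at an average mean count of at least 100, every member past the fold, both partners of isoform pairs, and of each other list its most abundant gene and at most 4 with the largest ratios at that minimum. A few others were named after their values were seen: Cox7a2l, Sdhc, Pfkp, Cd3e, Atp5s, Actc1, Ckm, Foxj1, Tekt1, Rsph1, Hoxa10 and Nrf1. The same holds for the Ndufs5 entry at 0, the brown fat and myosin markers, and genes cited for copies, overlaps or motifs. The members and lists were chosen with earlier results of these data known. Alternatives covered scaling, pseudocount, count minimum, fold, structural subunits, the most abundant member and short genes.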

Additional observations from a re-analysis of the deposited data

How the results depend on the processing

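No direction of a sum or median reversed under any alternative run, while Ndufa6 and Cox6a1 turned below 0 with centring on the median gene or upper-quartile scaling. Centring on the median gene moved the log2 ratio of the summed counts from 0.108 to 0.084 for all members, from 0.127 to 0.102 for complex I, 0.116 to 0.092 for II, 0.090 to 0.065 for III, 0.123 to 0.099 for IV and 0.090 to 0.065 for V. Upper-quartile scaling gave 0.088, 0.106, 0.095, 0.069, 0.102 and 0.069 in that order. Both alternatives subtract a constant from every gene. With structural subunits only, complex IV gave 0.109, since Cox7a2l leaves the sum, and its interval then overlapped those of complexes III and V. Column totals without the 10 most abundant genes and sums without the most abundant member moved no sum beyond its counting interval.

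Of the 90 members, 41 (45.6%) were higher past a fold of 1.1 and 1 (1.11%) past 1.5, beside 29.0% and 5.43% of all genes, and 0 were lower at either fold. The count of 7 became 5 after centring on the median gene and 6 with upper-quartile scaling. With a minimum of 50, which leaves out Cox6a2 and Cox8b, it was 5. Without the 7 tissue isoforms of complex IV, an alternative chosen after seeing the data, the count was 4, fewer genes being counted. The median log2 ratio of 0.129 became 0.104 after centring. The offset of that median from the background was 0.104 against all genes and 0.026 against genes with transcripts under 1500 bases; the cause was not tested. The latter sets all 90 members, long ones included, against short genes, while the 67 short members alone had a median of 0.14 and other short genes 0.10. For the 7 members past the fold and Foxo1, all 16 ratios under centring or a pseudocount of 0.1 stayed within their counting intervals.

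No paired analysis was possible because only genotype means were used, although the labels share replicate numbers 1 to 3. For the same reason, leaving out each replicate was not run. Depth limits the tissue isoforms most, with Cox6a2, Cox8b and Cox7a1 at mean counts under 50.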
